A study of Medicago truncatula with 24 samples.

Results

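In embryos of *Medicago truncatula*, 319 regions of the genome carried a called H3K27me3 peak at the first seed stage, S1, at both growth temperatures, and none at the following 3 stages when the seeds were kept at 20°C. They are called lost regions here. To find them, the peaks of the 8 H3K27me3 lists on chromosomes 1 to 8 were joined wherever they overlapped or touched, which gave 21666 merged regions. Of these, 567 had a peak in both S1 lists. The lost regions are the 319 of the 567 that held no peak of the S2, S3 or S4 list at 20°C, and the other 248 held at least 1. The members were thus chosen by the S1 lists and by the later lists of 20°C, so their S1 values and their lack of later 20°C peaks are a description. The later lists of 26°C, the H3ac lists and the genes were not used in the choice.

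H3K27me3, the trimethylation of lysine 27 of histone H3, is written by Polycomb repressive complex 2, whose catalytic subunits in *Arabidopsis* are CURLY LEAF, SWINGER and MEDEA. It marks genes kept silent, is removed by JUMONJI-type demethylases such as REF6 in *Arabidopsis*, and is diluted by DNA replication when it is not restored. In seeds of *Arabidopsis*, the mark is known for keeping the regulators of embryogenesis and maturation off after germination. Acetylation of histone H3 (H3ac) is found at active genes.

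The embryos came from the line A17. ChIP-seq for H3K27me3 covered 4 seed stages, and that for H3ac the first pair of them. Plants grew at 20°C by day and 18°C by night and either stayed there or were moved at flowering to 26°C by day and 24°C by night, the heat stress of the study. At 20°C, S1 was taken at 17 days after pollination, S2 at 26, S3 at 36 and S4 at 44, and at 26°C the same stages were taken at 14, 17, 22 and 28 days, so that the embryos of S2 at 26°C had the age of those of S1 at 20°C. S1 lies before and S2 after the acquisition of desiccation tolerance, S3 at the onset and S4 after the acquisition of seed longevity. Each condition is 1 IP library, made from many pooled embryos, with its own INPUT library. The record of the study describes replicates for H3ac, but the samples analysed here hold 1 library per condition. There are thus no replicates here, temperature cannot be told apart from days after pollination, and no difference below has a replicate check or a p-value.

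A region counts as marked when the deposited list holds a peak there, and its level is the fold enrichment of IP over INPUT, averaged over a broad peak (the highest peak where a region holds several). On chromosomes 1 to 8, the 20°C lists held 4648, 1793, 1455 and 862 peaks in the order of the stages. Those of 26°C held 5611, 5234, 6448 and 4390. The 3 later lists thus held 4110 peaks at 20°C and 16072 at 26°C, 3.91 times as many. The later lists covered 0.765% to 1.01% of the chromosomes at 20°C and 1.62% to 1.88% at 26°C. The depth of the libraries is not in the peak lists, and the read totals that the study gives were not used here. A missing peak says that none was called at the threshold of the list, not that the mark was absent.

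At S1, the lost regions had peaks of the usual fold enrichment. At 20°C, their fold enrichment ranged from 2.75 to 16.5 with a median of 3.77, against 3.58 for all peaks of that list. At 26°C, it ranged from 2.78 to 17.9 with a median of 3.99, against 3.91 for the list. In the other 248 regions the medians were 3.67 and 3.87. A region counts by its highest peak, so its value is not that of a single peak of the list. By −log10 p, the lost regions had medians of 4.60 at 20°C and 5.13 at 26°C, against 4.79 and 5.30 in the other 248. The lost regions also had fewer bases under S1 peaks, with medians of 1109 and 876 bp against 4942.5 and 6637 bp. Their strengths at both temperatures were almost unrelated across regions (Pearson r = 0.0495 on the log2 scale and Spearman rho = 0.121, n = 319 regions, which share the same 4 libraries and lie above the same calling threshold). The value was higher at 26°C in 169 of the 319. In the plot of both S1 values, the points fill an L shape, so regions that stood out at one temperature were mostly ordinary at the other.

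**Figure D1:**
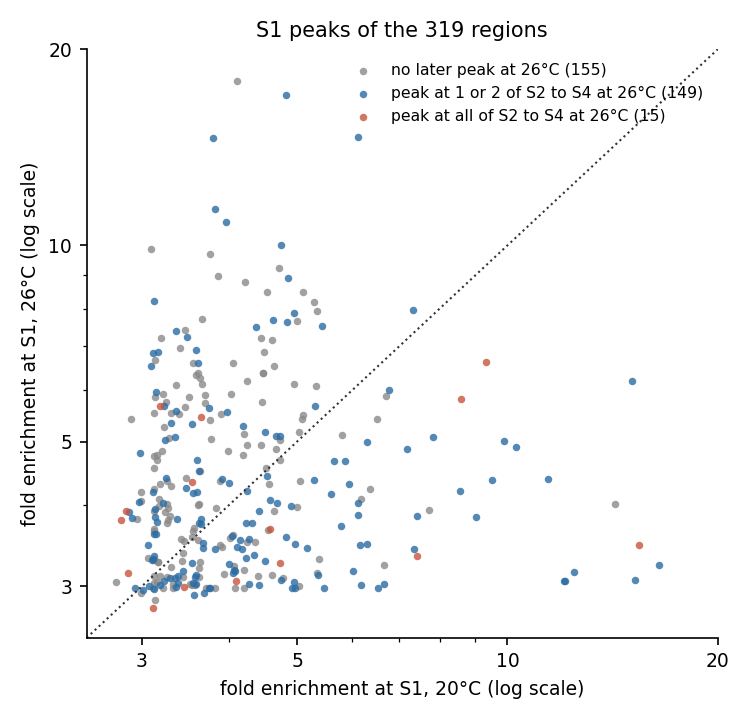
Each point is 1 of the 319 lost regions, with the fold enrichment of its highest S1 peak at 20°C on the x axis and at 26°C on the y axis, both on log scales, coloured by the number of later 26°C lists with a peak there. The dotted line marks equal values, and r over the log2 values is 0.0495.

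The peaks of both S1 lists often met over a short stretch only. The lost regions spanned 311 to 24875 bp with a median of 3223 bp, whereas the other 248 had a median of 12884.5 bp. The bases under a peak in both S1 lists, called shared S1 bases here, had a median of 402 bp per lost region and a median share of 23.1% of all its S1 bases. In 78 regions the shared bases were 50% or more of the S1 bases, and in 86 they were under 10%. In 57 regions the S1 peaks of 20°C covered at least 5 times the bases of those of 26°C, and in 37 the reverse held. In 8 regions the S1 peaks did not overlap at all and were joined only through a later peak of 26°C. In total the lost regions took 1.83 Mb, of which 441 kb were shared S1 bases.

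When the same stages were followed at 26°C, part of the lost regions still had a peak. A peak was called at S2 in 124 of the 319 (38.9%, exact 95% interval 33.5 to 44.5), while 23.3% of all merged regions had one. At S3 it was found in 84 (26.3%, 21.6 to 31.5) against 28.5% of all merged regions, and at S4 in 45 (14.1%, 10.5 to 18.4) against 19.5%. Over all lengths, the share was above the background at S2, around it at S3 and below it at S4. This background counts every merged region, also those built from later 26°C peaks alone. It thus depends on how many peaks each list holds, and is not the share of S1 regions that keep a peak. By length, with classes made after seeing the data, the excess at S2 was found from 1 to 8 kb only, with 54 of 142 (38.0%, 30.0 to 46.5) against 27.3%. Under 1 kb it was 8 of 81 (9.88%, 4.36 to 18.5) against 20.5%, and from 8 kb on 62 of 96 (64.6%, 54.2 to 74.1) against 65.9%. The intervals of the 3 stages do not overlap. They cover counting error only, and the difference between stages was not tested. With each later list limited to its 862 strongest peaks, these shares were 8.96%, 6.44% and 2.24% of 357 regions, against 6.94%, 6.91% and 6.96% of the merged regions made in that way. The other 248 regions kept a peak at 26°C more often, in 84.7% at S2 (79.6 to 88.9), 87.1% at S3 (82.3 to 91.0) and 74.2% at S4 (68.3 to 79.5), and these regions were also longer. Among regions with no later 20°C peak, those with an S1 peak at 20°C only had a peak at S2, S3 and S4 at 26°C in 4.27%, 5.57% and 3.57% of 3698, and those with an S1 peak at 26°C only in 7.19%, 6.66% and 3.59% of 4507. Most of these were under 1 kb, 2962 and 3600 respectively. From 8 kb on, an S2 peak at 26°C was found in 24.4% (17.3 to 32.7) of the 131 with the S1 peak at 20°C only and in 70.2% (59.3 to 79.7) of the 84 with it at 26°C only. The latter share overlaps that of the lost regions of this length.

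**Figure D2:**
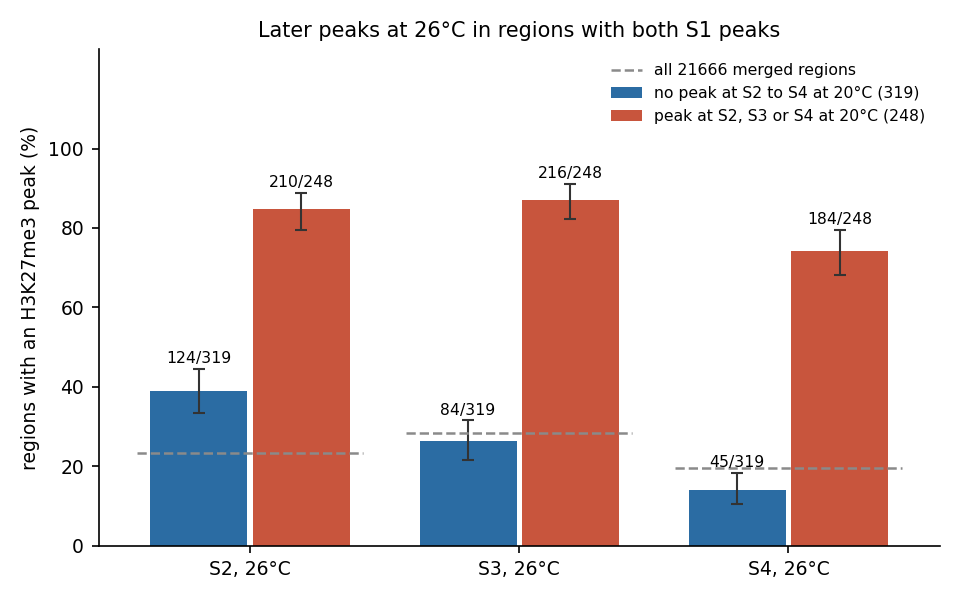
Bars give the percentage of regions with an H3K27me3 peak at S2, S3 or S4 at 26°C, for the 319 lost regions (blue) and the other 248 regions with both S1 peaks (red), with exact 95% binomial intervals and the counts above the bars. Dashed lines give the same percentage over all 21666 merged regions, which the blue bar exceeds at S2 only. All merged regions include those with no S1 peak.

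Taken by pattern, 155 of the 319 lost regions (48.6%) had no later peak at 26°C either and 164 (51.4%, 45.8 to 57.0) had at least 1, against 60.9% of all merged regions. That background includes regions with no S1 peak. The most frequent pattern was a peak at S2 alone, in 60 regions. Peaks at S2 and S3 were found in 36, at S3 alone in 23, at all 3 stages in 15 (4.70%), at S2 and S4 in 13, at S3 and S4 in 10 and at S4 alone in 7. Where a peak was called, its fold enrichment was near that of its list, with a median of 4.11 at S2 (list 3.90), 3.02 at S3 (list 2.86) and 2.78 at S4 (list 2.74). In the 15 regions marked at every stage of 26°C, the median went from 3.67 at S1 to 4.17, 3.14 and 2.78 at the stages after it.

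Loss at 20°C without loss at 26°C was found in 164 of the 567 regions with both S1 peaks (28.9%), and loss at 26°C without loss at 20°C in 13 (2.29%). The rule mirrored to 26°C, with no peak at S2 to S4 at 26°C, took 168 regions, of which 155 were also among the lost regions of 20°C. The direction was the same, with 39 against 0 regions, at a −log10 p of at least 5 in every list, and with 212 against 3 at a fold enrichment of at least 3. The settings that made lists equally long gave different answers. With all 8 lists limited to their 862 strongest peaks, 29 regions were lost at 20°C and 22 at 26°C, with 10 lost at 20°C only and 3 at 26°C only. With the later lists alone limited in this way, and the S1 lists left whole, 357 regions were lost at 20°C and 367 at 26°C. Of these, 56 were lost at 20°C only and 66 at 26°C only. The excess of loss at 20°C was thus seen in small numbers in the former setting and not in the latter, which was added after seeing the data. The single list of 20°C that decided most was S2, since 379 regions passed when S2 was not asked, 340 without S3 and 324 without S4. This order is also that of the list sizes, with 1793, 1455 and 862 peaks, and the part of size was not tested.

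The shared S1 bases were used to follow the mark on the same bases. Of the 440862 shared bases of 311 lost regions, 45.0% lay under a peak at S2 at 26°C, 15.7% at S3 and 4.54% at S4. The part of the chromosomes under these lists was 1.88%, 1.67% and 1.62%, but the shared bases were chosen as marked at S1, so higher values say little. By region, a peak on the shared bases was found in 101 at S2 (32.5%), 51 at S3 (16.4%) and 24 at S4 (7.72%). It covered all shared bases of the region in 51, 15 and 6. In the 216 other regions that have shared bases, peaks of S2, S3 and S4 at 26°C covered 89.9%, 80.1% and 71.5% of them, and those of 20°C covered 78.4%, 62.6% and 63.1%. On the shared bases the fall from S2 to S4 at 26°C was thus steeper in the lost regions than in the others. This difference was not tested.

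**Figure D3:**
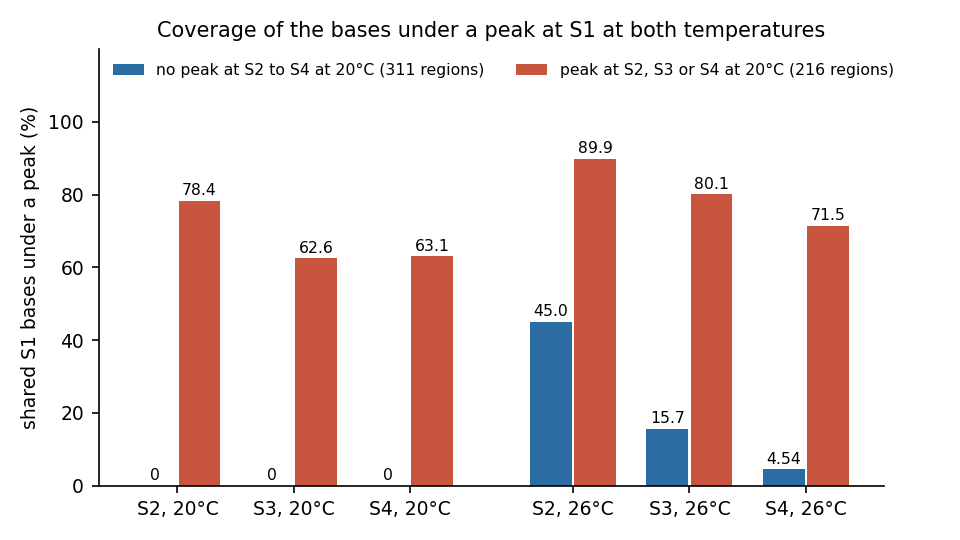
Bars give the percentage of shared S1 bases (under a peak at S1 at 20°C and at 26°C) that lie under a peak of each later list, for 311 lost regions (blue, 0 at 20°C by the rule) and 216 other regions (red). In the lost regions the value goes from 45.0% at S2 to 4.54% at S4 at 26°C, and in the others from 89.9% to 71.5%.

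Later peaks at 26°C went with the length of the region. Of the 81 lost regions under 1 kb, 13 had a later 26°C peak (16.0%), against 57.8% of all merged regions of that length. Between 1 and 8 kb these were 79 of 142 (55.6%) against 69.6%, and from 8 kb on 72 of 96 (75%) against 82.9%. All merged regions include those with no S1 peak, so these backgrounds are not shares of S1 regions that keep a peak. A merged region is itself built from the peaks of all lists, so its length is not independent of the number of lists with a peak there. The regions with no later 26°C peak had a median length of 1331 bp and those with at least 1 of 6730.5 bp. Their S1 fold enrichment at 20°C had medians of 3.63 and 4.06, and 1 and 15 regions respectively were above 8. At S1 at 26°C the order was the other way, with medians of 4.27 and 3.81 and with 9 and 8 regions above 8.

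**Figure D4:**
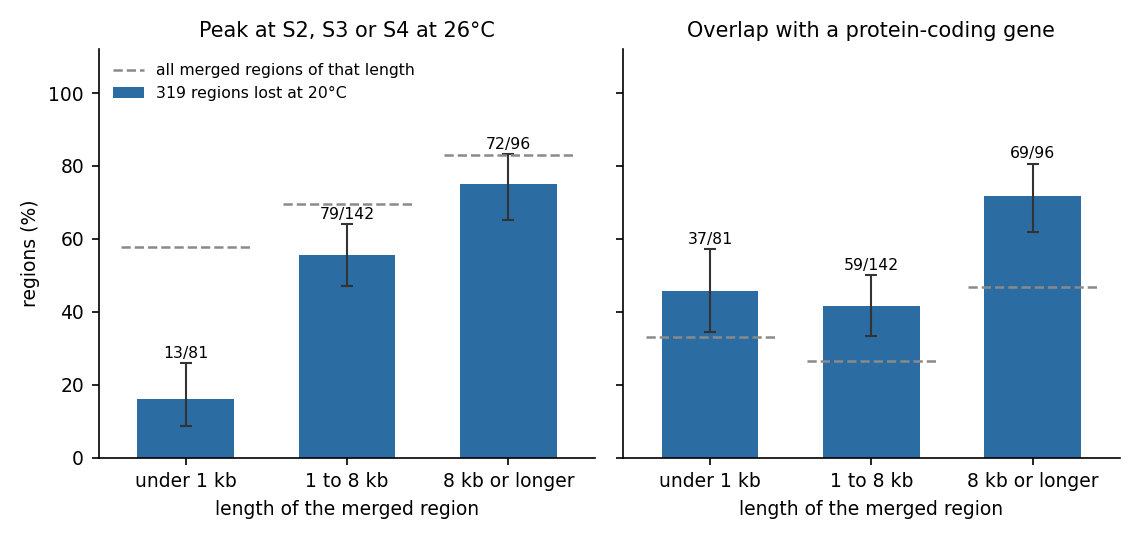
Left, the percentage of lost regions with a peak at S2, S3 or S4 at 26°C by length of the region, and right, the percentage that overlap a protein-coding gene, with exact 95% binomial intervals and counts. Dashed lines are all merged regions of the same length, above the bars on the left and below them on the right. All merged regions include those with no S1 peak.

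Counted over their whole span, the lost regions overlapped genes more often than all merged regions, with an interval above the background. A protein-coding gene of the RefSeq annotation was overlapped by 165 of the 319 (51.7%, 46.1 to 57.3), against 32.3% of all merged regions and 36.3% of the other 248 regions (30.3 to 42.6). The excess over the background was found in each length class, with 37 of 81 under 1 kb (45.7%, background 33.0%), 59 of 142 from 1 to 8 kb (41.5%, background 26.7%) and 69 of 96 from 8 kb on (71.9%, background 46.7%). On the shared S1 bases alone a gene was met by 117 regions (36.7%). This is closer to the 32.3% of all merged regions, which counts whole spans. No background on comparable bases was computed, so the excess is shown for whole spans only. Within 3 kb there was a protein-coding gene for 221 (69.3%, background 53.5%). The regions marked at S2 alone at 26°C held a gene in 42 of 60 cases (70.0%), those without a later 26°C peak in 77 of 155 (49.7%) and those marked at all 3 stages in 6 of 15 (40%). No test was made between these classes, which also differ in length. Of the regions with no later 20°C peak and an S1 peak at 20°C only, 38.2% overlapped a protein-coding gene, and of those with an S1 peak at 26°C only, 39.4% did. At equal length these groups were close to the lost regions, with 71.8% and 71.4% from 8 kb on, 37.7% and 40.1% from 1 to 8 kb, and 36.8% and 38.4% under 1 kb, each within the interval of the lost regions.

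In all, 207 protein-coding genes were touched, with 1 gene in 130 regions, 2 in 27 and 3 in 8. A whole gene lay inside 54 regions, and 44 regions lay inside 1 gene. The S1 peak of 20°C covered 42 of the genes completely and that of 26°C 30, but only 9 were covered completely by both. Shared S1 bases fell in 124 of the genes, 23 of them with 50% or more of their length. No rRNA gene was overlapped, and only 13 of all 21666 merged regions (0.06%) overlapped one. Among the other 248 regions, 9 did so. The annotation used here names these genes by locus symbols only, so their functions are not described.

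The 12 lost regions with a gene that ranked first by the lower of both S1 values illustrate the range (positions are on MtrunA17r5.0, with the S1 value of 20°C before that of 26°C). On chromosome 5, chr5:19952706-19971738 had a fold enrichment of 15.1 at S1 at 20°C and 6.19 at S1 at 26°C, and 8.90 at S2 at 26°C. Its gene LOC11433130 (chr5:19953927-19958080) lay fully under the S1 peak of 26°C and outside those of 20°C. None of its 8976 shared bp were thus in that gene, and part of them lay over the pseudogene LOC11433131. On chromosome 3, chr3:48442726-48443300 lies inside LOC11425571 and was stronger at 26°C, with 6.12 at S1 at 20°C, 14.7 at S1 at 26°C, 5.42 at S2 and 2.78 at S4. On chromosome 1, chr1:4452093-4463588 holds LOC11409184 (chr1:4460890-4461703) whole under both S1 peaks, with 8.57 at 20°C and 5.82 at 26°C, and was followed at 26°C by 3.56, 3.61 and 2.77 at S2, S3 and S4. This gene thus kept the mark at 26°C on the same stretch at S2 and in part at S3, and at no later stage of 20°C.

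Most of the other first-ranked regions were short and had no later peak at either temperature. LOC11412046 on chromosome 4 (chr4:50927970-50928754) had 6.51 at S1 at 20°C and 5.41 at 26°C. LOC25487121 on chromosome 2 (chr2:36358573-36359023) had 5.34 and 7.94, and LOC11410316 on chromosome 3 (chr3:33034348-33035053) had 5.33 and 6.08. LOC25502592 on chromosome 8 (chr8:25425207-25427570) had 5.81 and 5.12, with 86.3% of the gene under the 20°C peak. These 4 regions had no peak at any later stage. The same held for LOC11409774 (chr3:29882307-29882823; 5.10 and 8.47), for LOC11431141 with LOC11420711 (chr3:47116183-47128159; 5.10 and 5.50), for LOC25481581 (chr7:16997461-16997878; 5.08 and 5.42) and for LOC25488963 (chr3:24142382-24142852; 5.04 and 5.18). The last of the 12, with LOC120576011 and LOC120575932 (chr6:16448389-16451131), had 7.81 and 5.09 at S1, followed by 3.55 at S2 at 26°C. Thus 8 of the 12 had no later peak in any list, and the 4 with one had it at S2 at 26°C.

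The regions marked at all stages of 26°C were mostly long. After LOC11409184, the next were chr8:20735631-20759687 with LOC120577489, chr4:28438759-28451654 with LOC120579961 and LOC11430495, and chr8:36239214-36249260 with LOC11406119, LOC25502891 and LOC25502892. Several of these genes were not under both S1 peaks. LOC11430495 lay under neither, LOC120577489 under that of 26°C only, and LOC11406119 and LOC25502892 partly under that of 20°C only. The fold enrichment of the regions at S2, S3 and S4 at 26°C was 6.05, 3.14 and 2.73 in the first. It was 8.74, 2.91 and 2.41 in the second, and 4.17, 3.43 and 2.72 in the third. In each of these regions the value at S4 was the lowest of the 3. The medians over all peaks of these lists went the same way, with 3.90, 2.86 and 2.74. Of those marked at S2 alone, chr7:8997744-9018894 holds LOC11439796 whole under both S1 peaks, with 9.89 (20°C) and 5.01 (26°C) at S1 followed by 4.13 at S2 at 26°C. LOC25501001 in chr8:13331772-13340111 was also wholly covered by both, with 6.30 and 5.00 at S1 and 2.97 at S2. The S2 values of these 2 regions were below both of their S1 values.

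**Figure D5:**
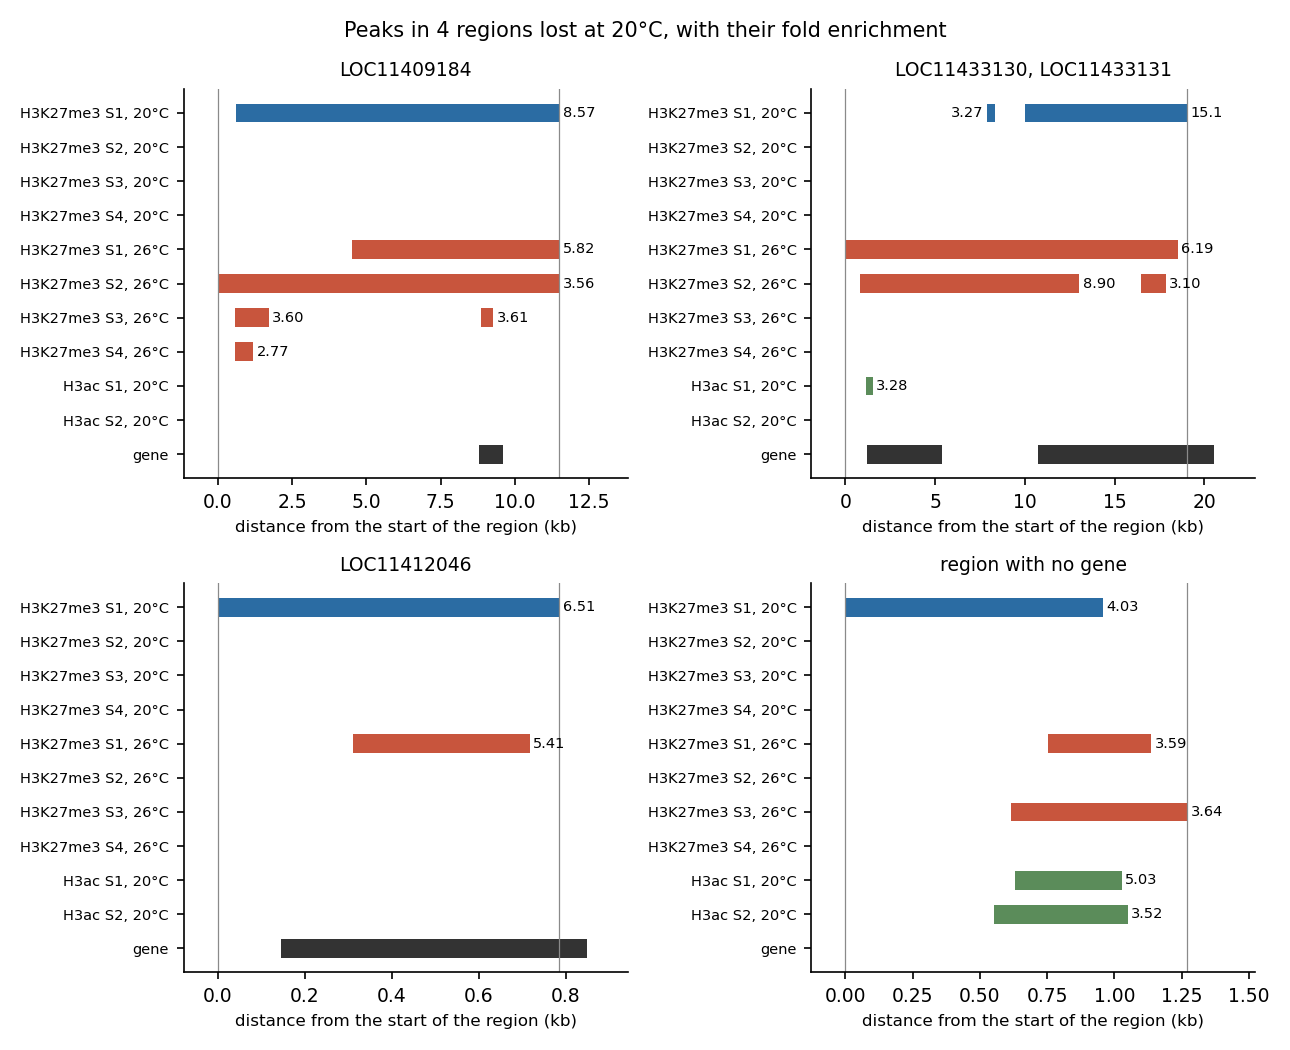
Each panel shows 1 lost region between thin grey lines, with the peaks of the H3K27me3 lists (blue 20°C, red 26°C) and of the H3ac lists of 20°C (green) against the distance from its start in kb, the fold enrichment beside each peak, and genes in black, cut at the panel edge. The region of LOC11409184 shows later peaks at each stage of 26°C (that of S4 off the gene), the region of LOC11433130 at S2 only, that of LOC11412046 at none, and the region with no gene at S3 with H3ac peaks of S1 and S2.

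The 3 longest regions differed in how far their S1 peaks met. The longest, chr5:26087767-26112641, had 20587 bp of S1 peak at 20°C and 4329 bp at 26°C with 41 bp in common, at 12.0 and 3.05. It holds LOC11431474 and LOC11429941 whole under the 20°C peak and none of either under the 26°C peak. In the second, chr8:20735631-20759687, the shared stretch was 5614 of the 5615 bp of the 20°C peak, and in the third, chr7:27014307-27037427 with LOC11434943, it was 6753 bp. Chosen after their values were seen, the regions with the highest value in a list were chr3:33644889-33658031 with LOC25489250 (16.5 at S1 at 20°C, 3.23 at S1 at 26°C), chr7:8138067-8138472 with LOC11438852 (4.11 and 17.9) and chr2:41998592-42013939 with LOC25487499 (6.16 and 3.47 at S1, 29.4 at S2 at 26°C). Each extreme value thus stood in 1 list only.

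Of the 154 lost regions without a protein-coding gene, 141 overlapped no gene of any kind, and the median distance to the nearest protein-coding gene was 5150 bp. The strongest of them, also taken after seeing the values, were ranked 1, 2 and 5 of all 319. They were chr3:31077922-31078647 (7.34 and 7.95 at S1, 3.28 at S3 at 26°C), chr6:28319757-28339353 (9.32 and 6.62 at S1, and 4.86, 3.19 and 2.84 at S2, S3 and S4 at 26°C) and chr2:39850379-39852663 (6.77 and 6.0 at S1, 6.33 at S2 at 26°C). All 3 had at least 1 later peak at 26°C, and in the last the S1 peaks of both temperatures overlapped over 2262 of 2285 bp.

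Few of the lost regions carried acetylated histone H3. A peak of any of the 4 H3ac lists was overlapped by 29 of the 319 (9.09%, 6.17 to 12.8), against 7.79% of all merged regions and 50.0% of the other 248 (43.6 to 56.4). The closeness to all merged regions held with lengths pooled and under 1 kb, but not from 1 kb on. From 8 kb on, it was 14 of 96 lost regions (14.6%, 8.21 to 23.3) against 37.4% of all merged regions and 55.6% of 187 others (48.2 to 62.9). From 1 to 8 kb it was 10 of 142 (7.04%, 3.43 to 12.6) against 16.7%, and under 1 kb 5 of 81 (6.17%, 2.03 to 13.8) against 4.32%. Other regions with no later 20°C peak, with an S1 peak at 20°C only or at 26°C only, had similar shares at equal length. These were 9.16% and 13.1% from 8 kb on, 7.27% and 5.71% from 1 to 8 kb, and 2.26% and 2.81% under 1 kb. Each lies within the interval of the lost regions, so the low share is not particular to them. Of the 29 lost regions with an H3ac peak, 27 met the list of S1 at 20°C (8.46%, background 5.05%). By length, this list met 5 of 81 regions under 1 kb (6.17%, background 2.80%), 8 of 142 from 1 to 8 kb (5.63%, background 10.4%) and 14 of 96 from 8 kb on (14.6%, background 26.8%), so that the order against the background turned with length. This list held 4376 peaks, against 928 for S2 at 20°C, 786 for S1 at 26°C and 530 for S2 at 26°C, and these 3 lists overlapped 1, 2 and 0 lost regions. The 28 peaks of S1 at 20°C had a fold enrichment of 2.52 to 5.30 with a median of 3.31, and 12 of them lay on shared S1 bases. With all lists of both marks limited to a q-value of at most 0.05, the H3K27me3 peaks were merged anew into 20259 regions. This also gave 319 lost regions, of which 15 (4.70%) had an H3ac peak. The share over all merged regions was not computed in that setting.

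Only 1 lost region met more than 1 H3ac list. This was chr8:43961221-43962490, which overlaps no gene. At 20°C its H3ac peaks had a fold enrichment of 5.03 (S1) and 3.52 (S2). Its H3K27me3 peaks had 4.03 and 3.59 at S1 (20°C and 26°C) and 3.64 at S3 of 26°C. Both H3ac peaks lay partly on the shared S1 bases. It was followed by rank by chr6:28319757-28339353 with 3.34 and chr5:19952706-19971738 with 3.28, both at S1 at 20°C and off the shared bases, the second over the gene LOC11433130. In whole embryos, marks on the same and on different cells cannot be told apart.

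The lost regions were spread over all chromosomes. There were 36, 38, 44, 45, 29, 33, 44 and 50 on chromosomes 1 to 8. Chromosome 8 had 10.1 per 10 Mb and 76.9% of its regions with both S1 peaks were lost, while the other chromosomes had 6.35 to 7.83 per 10 Mb and 46.5% to 60.0%. Neighbouring lost regions were a median of 811 kb apart, only 7 of 311 gaps were under 10 kb, and 216 of 428 bins of 1 Mb held at least 1. In bins with fewer than 40 protein-coding genes lay 46 of the 319 (14.4%, 10.8 to 18.8), against 19.0% of all merged regions and 38.3% of the other 248 (32.2 to 44.7). Regions with no later 20°C peak and an S1 peak at 20°C only or at 26°C only lay there in 12.8% and 12.2%, close to the lost regions. Within 3 Mb of a chromosome end lay 26 lost regions (8.15%, 5.39 to 11.7), against 9.63% of all merged regions.

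The nearest peak of S2 to S4 at 20°C was a median of 60.5 kb away from a lost region. It was within 10 kb for 36 regions and within 1 kb for 2. Just inside the rule were chr5:24134272-24143061, 77 bp from a peak of S4 with a fold enrichment of 2.67, chr1:11063133-11063969 in LOC120577945, 688 bp from a peak of S3 (fold enrichment 2.53), and chr8:39893572-39894062 in LOC11410358, 1021 bp from a peak of S3 (fold enrichment 2.88). Just outside were chr4:1724062-1735095, chr7:23693093-23707049 with LOC112416614 and chr2:21542156-21555080 with LOC120578105. In these, a peak of S2 at 20°C covered 263, 266 and 268 bp, with a fold enrichment of 2.29, 2.45 and 2.86. Of the 248 other regions, 86 were kept out by 1 list of 20°C alone (60 by S2, 21 by S3 and 5 by S4), and 114 had a peak in all 3.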

How the data were processed

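Per the study's methods, reads were trimmed with trim_galore, mapped uniquely with STAR to MtrunA17r5.0, freed of duplicates (Picard, Samtools) and used to call peaks with macs2 for each IP against its INPUT library (p-value below 0.01, broad for H3K27me3). Versions are not given in the sources used here. The deposited lists, 1 per IP library, hold the ratio of IP to INPUT (fold enrichment) of each peak, and its p-value and q-value as −log10. Anything under the threshold is missing from them.

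Here, peaks on chromosomes 1 to 8 were merged and overlapped (at least 1 bp) with genes of the RefSeq table of MtrunA17r5.0, in Python 3.11.15 with NumPy 2.4.6 and SciPy 1.17.1, drawn with matplotlib 3.10.9 and checked on simulated intervals and with bedtools 2.31.1. Shares carry exact 95% Clopper-Pearson intervals. With 1 library per condition there was no test. Named were the first 12 members with a protein-coding gene by the lower S1 value, the first 4 with such a gene in each of 3 classes of later 26°C peaks (all, S2 only, none), the 3 with most H3ac lists, the 3 longest and the 3 on each side of the rule's limit. Members, lists and settings were chosen with earlier results of these data known. Gene lists by function and sequences were not used, since the table has locus symbols only. The alternatives tried were 12 planned and 2 added after seeing the data.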

Additional observations from a re-analysis of the deposited data

Results flagged for a closer look

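The number of lost regions overlapped by H3ac peaks was 27 for the list of S1 at 20°C, and 2, 1 and 0 for the other 3 lists. It stood out because this list lies far from the other 3: its gap to the nearest of them is 0.926 of the whole range, above Dixon's 95% limit for 4 values. The 4 lists are 4 conditions and not replicates, and chance alone would single out about 1 in 20 such groups. The list of S1 at 20°C also held the most H3ac peaks, 4376 against 530 to 928, and the part of that number in the count was not tested.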

How the results depend on the processing

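In all, 14 other settings, 2 of them added after seeing the data, were run for the number of lost regions, the mirrored rule and the 5 shares. The added ones are overlaps on shared S1 bases only, and later lists of equal size. A −log10 p of at least 5 left 100 lost and 61 mirrored regions, with a gene in 67% (background 34.2%) and an H3ac peak in 14%. Peaks at S2, S3 and S4 at 26°C were in 31%, 10% and 5%, against 27.7%, 17.5% and 15.8% of the merged regions of that setting. With 862 peaks in each of the 8 lists, 29 lost and 22 mirrored regions were left, with a gene in 69.0% (background 28.4%). Later 26°C peaks were in 27.6%, 10.3% and 3.45% of the lost regions, against 16.4%, 16.4% and 16.5% of the merged regions of that setting. With only the later lists at that size, the mirrored rule took 367 regions, and the later 26°C shares of the 357 lost regions were 8.96%, 6.44% and 2.24%. On shared S1 bases only, the shares were 31.7%, 16.0% and 7.52% for S2, S3 and S4 at 26°C, 36.7% for genes and 4.08% for H3ac. A fold enrichment of at least 3 gave 45.7% at S2 (background 29.5%) and 8.42% at S4 (background 8.26%) at 26°C. A q-value of at most 0.05 gave 4.70% for H3ac, a share for which no background was computed in the other settings. Without asking for S2 at 20°C, 45.9% had a peak at S2 (background 23.3%) and 34.3% at S3 (background 28.5%) at 26°C. The order of S2 above S3 above S4 at 26°C held in each of these. The other values stayed within 1.5 times (counts) or within the interval of the main share. No paired analysis was possible because each condition has 1 library. What limits all of this is that weak signal under the calling threshold is not in the lists, and that the later 20°C lists are the shortest.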
